A study of Mus musculus with 6 samples.

Results

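The probe sets described here report the receptor EGFR (gene Egfr), its relatives Erbb2 and Erbb3, their ligands Tgfa, Areg, Ereg, Btc, Hbegf and Egf, and the receptor gene Met. The members are all probe sets that the platform annotation pairs with exactly 1 gene, that gene being on the list of 10. They come to 18 probe sets of 9 genes, among 22626 probe sets that are not array controls, and no probe set was paired with Areg alone. The study compared liver RNA of 3 wild-type mice with liver RNA of 3 transgenic mice, all at postnatal day 9, each animal on its own Affymetrix array. In the transgenic group the transcription factor TFEB (gene Tfeb, Tcfeb in the labels) was overexpressed from a conditional allele together with Alb-Cre, Cre recombinase under the albumin promoter, which is active mainly in hepatocytes. The sources used here do not give the strain or say whether the wild-type mice carried either transgene.

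EGFR is a receptor tyrosine kinase of the hepatocyte surface, and its ligands are made as membrane-bound precursors that proteases release. ERBB2 has no known ligand of its own and ERBB3 has little kinase activity, so both signal by pairing with other family members, ERBB3 after binding neuregulins. MET is the receptor of hepatocyte growth factor. In liver, EGFR and MET signalling support hepatocyte growth in development and regeneration, through the RAS-MAPK and PI3K-AKT pathways.

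Levels are the deposited log2 values, and a difference is the transgenic mean less the wild-type mean, with its standard error (SE) from limma fitted over all 22626 probe sets. A probe set rose or fell where its Benjamini-Hochberg adjusted p was under 0.05. Of all probe sets 35.4% passed, 18.1% higher and 17.3% lower. The hepatocyte markers measured averaged 11.93 to 13.01 on the 6 arrays. Alb, which encodes albumin and had the brightest of all probe sets, averaged 14.87 in both groups. The level of Tfeb was 6.71 ± 0.18 (SD, n = 3) in the wild type and 6.50 ± 0.13 (SD, n = 3) in transgenic liver (-0.21, SE 0.11, adjusted p = 0.178), and the sources used do not say whether this probe set reads the transgene, so it checks neither label. Transgenic replicate 1 had a male pattern (Xist probe set 1436936_s_at 5.58, Eif2s3y 9.32), whereas the other arrays read Xist at 13.03 or above. All 14 probe sets for the bacterial hybridisation controls were lower on every transgenic array. Scaling the arrays to those controls (control-scaled arrays) added 0.37 to every difference and moved the median over all probe sets from -0.04 to 0.33, so directions below hold on the deposited scale. The value on the other scale is given for members and named genes whose call it changes, and for lists as counts. For Alb it was 0.37 (adjusted p = 0.00665).

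Promoter sequences show where the members stand with respect to DNA words that TFEB can bind. The RefSeq promoter table of GRCm38.p6 held 8 windows for 7 of the 10 genes, each of 250 bases before to 50 bases after a transcript start. The E-box CACGTG, searched on both strands, lay in 1 of the 8 windows, that of Met, starting 126 bases before the start, and in 7.15% of all 32851 windows in the table. The AP-1 motif TGANTCA lay in the Met window too, 54 bases before the start, and in 7.81% of all windows, without overlapping the E-box. The longer word TCACGTG, which contains the E-box, lay in none of the 8 and in 3.77% of all windows. The cAMP response element TGACGTCA lay in the window of Areg alone, the member with no measurement, and in 1.79% of all windows. A match is a string of letters and not a shown binding site. The 250 bases upstream of the start are printed 5′ to 3′ on the gene's strand for Met, for Egfr, which had the largest fall, and for Btc, a ligand gene that rose, with the E-box and the AP-1 motif in capitals. Met is at chr6:17463707-17463956 (plus strand), Egfr at chr11:16751953-16752202 (plus strand) and Btc at chr5:91402995-91403244 (minus strand). The gene record of Met begins earlier, at 17463349, so its stretch and both matches lie within the record, before a later transcript start. Those of Egfr and Btc adjoin the outer ends of their records (16752203 and 91402994).
Met: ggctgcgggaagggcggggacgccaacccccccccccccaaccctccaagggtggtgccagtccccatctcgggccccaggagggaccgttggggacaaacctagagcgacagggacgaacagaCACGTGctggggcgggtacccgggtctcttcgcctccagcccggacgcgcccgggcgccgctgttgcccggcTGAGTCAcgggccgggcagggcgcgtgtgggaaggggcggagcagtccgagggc
Egfr: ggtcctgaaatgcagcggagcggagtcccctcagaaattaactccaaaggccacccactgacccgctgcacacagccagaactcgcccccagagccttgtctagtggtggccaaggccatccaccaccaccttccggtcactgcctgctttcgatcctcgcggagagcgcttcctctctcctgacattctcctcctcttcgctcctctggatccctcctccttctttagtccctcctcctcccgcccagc
Btc: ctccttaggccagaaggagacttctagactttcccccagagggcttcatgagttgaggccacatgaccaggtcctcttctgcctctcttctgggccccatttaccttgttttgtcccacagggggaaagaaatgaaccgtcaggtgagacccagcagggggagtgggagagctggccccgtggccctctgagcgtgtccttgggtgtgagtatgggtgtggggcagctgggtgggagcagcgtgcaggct
The stretch of Met was the richest in G and C of these (74.0%, with 24 CpG pairs), followed by Egfr (60.8%, 11) and Btc (59.6%, 4), against medians of 52.4% and 6 over all windows.

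Among the members, Egfr fell and the ligand genes Hbegf and Btc rose in transgenic liver. Of the 18 probe sets, 10 passed the threshold, 3 higher and 7 lower, against 35.4% of all probe sets (18.1% higher, 17.3% lower). The 9 receptor probe sets gave 5 falls, 4 of them of Egfr and 1 of Met, and no rise. The 9 ligand probe sets gave 3 rises and 2 falls. With each gene read by its brightest probe set, 2 of the 9 genes rose and 3 fell, against 19.1% and 19.5% of all genes. The groups did not overlap for 11 of the 18 probe sets (4 higher, 7 lower), against 50.5% of all probe sets (24.6% higher, 25.9% lower). Only 1 member probe set, in Egfr, changed 2-fold or more, against 4.27% of all probe sets (2.18% higher, 2.09% lower). The median difference was -0.16 over the 18 members and -0.04 over all probe sets.

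**Figure D1:**
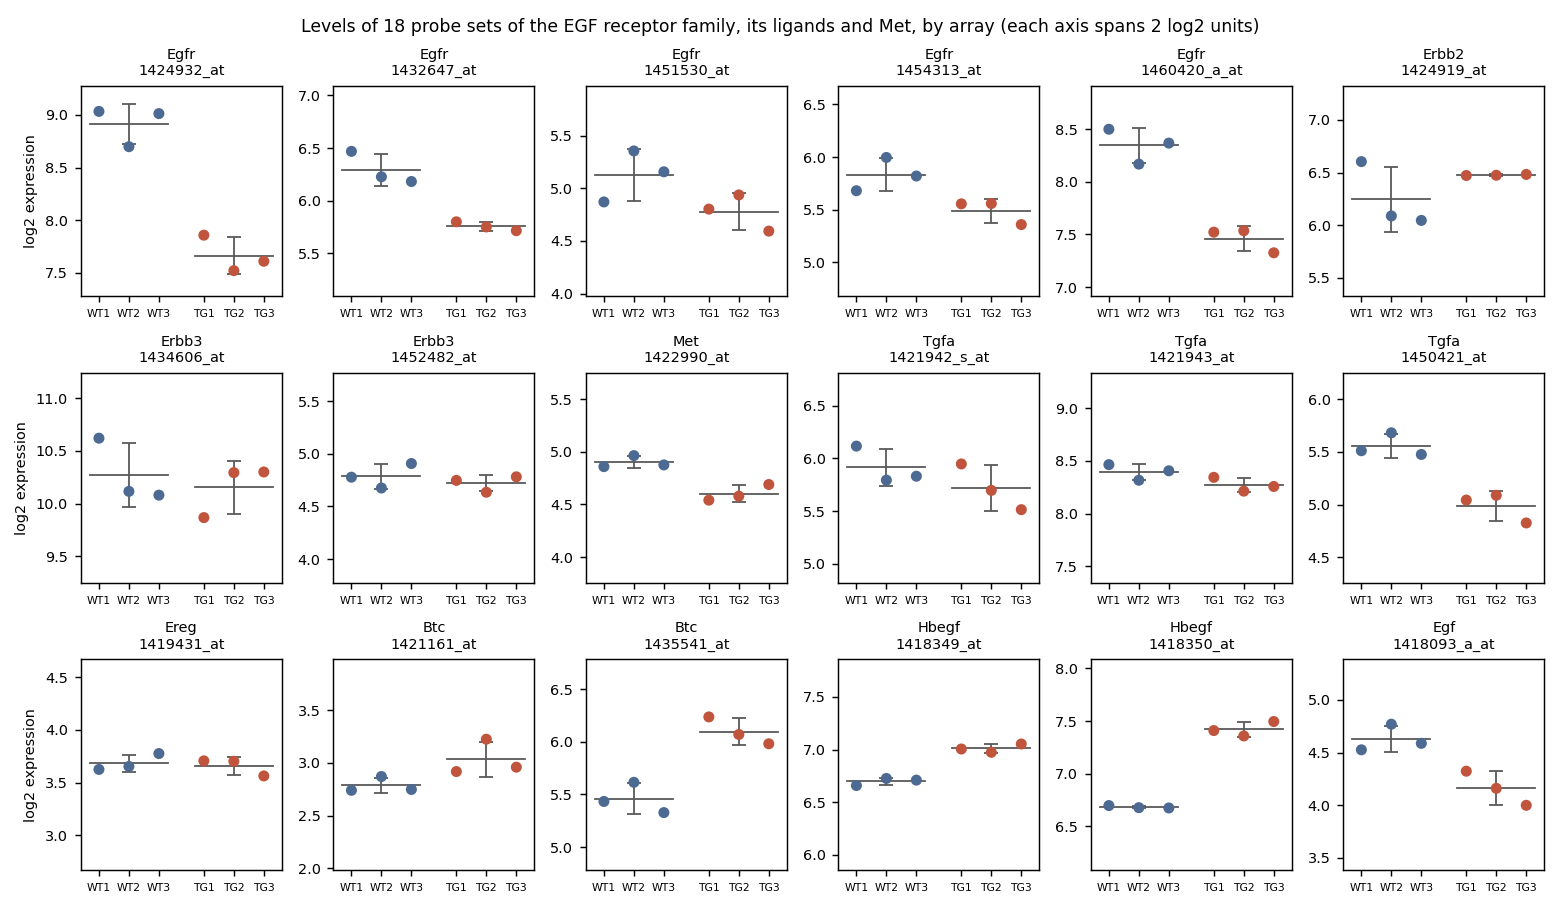
Log2 expression of each member probe set on the 3 wild-type arrays (WT1 to WT3, blue) and the 3 transgenic arrays (TG1 to TG3, red), with the group mean (line) and SD (bar). Every axis spans 2 log2 units. The groups are apart by the most for Egfr 1424932_at and overlap for 7 of the 18, namely both Erbb3 probe sets, Erbb2, Ereg, 2 of Tgfa and 1 of Egfr.

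Egfr was measured by 5 probe sets designed from 3 transcript records, and 4 of them fell. The brightest, 1424932_at, read 9.03, 8.70 and 9.01 on the wild-type arrays and 7.86, 7.52 and 7.61 on the transgenic arrays. Every transgenic array thus lay below every wild-type array. The group values were 8.91 ± 0.19 and 7.66 ± 0.17 (SD, n = 3 each), a fall of 2.38-fold (-1.25, SE 0.12, adjusted p = 0.000201). Probe set 1460420_a_at read 8.50, 8.17 and 8.37 in wild-type and 7.52, 7.54 and 7.33 in transgenic liver. This was a fall of 1.85-fold (-0.88, SE 0.10, adjusted p = 0.000508), again with no overlap.

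The other 3 Egfr probe sets were dimmer and differed by less. Probe set 1432647_at read 6.47, 6.23 and 6.18 against 5.80, 5.75 and 5.72 (-0.54, SE 0.09, adjusted p = 0.00299). Probe set 1454313_at read 5.68, 5.997 and 5.82 against 5.56, 5.56 and 5.36 (-0.34, SE 0.10, adjusted p = 0.033). Its call was lost with quantile normalization again (adjusted p = 0.0612) and with cyclic loess (0.0774), and without wild-type replicate 2 (0.099) or 3 (0.0707) or transgenic replicate 1 (0.055), 2 (0.0591) or 3 (0.106). Probe set 1451530_at read 4.87, 5.35 and 5.16 against 4.80, 4.94 and 4.59, groups that overlapped (-0.35, SE 0.14, adjusted p = 0.0826), and it passed without wild-type replicate 1 (-0.48, adjusted p = 0.0206) and with array weights (-0.40, adjusted p = 0.0391). All 5 differences had the same sign on the deposited scale. On control-scaled arrays, the 2 brightest kept their falls (-0.88, adjusted p = 0.000279, and -0.51, adjusted p = 0.00496), 1432647_at did not pass (-0.17, adjusted p = 0.241), and 1454313_at and 1451530_at stood at 0.03 and 0.02.

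Egfr was not alone in falling among transcripts of hepatocytes. Of 9 hepatocyte markers measured, 7 fell and none rose, against 19.5% of all genes that fell when each gene is read by its brightest probe set (on control-scaled arrays 5 fell and 2 rose). Averaged per array, their level ranged from 12.93 to 13.01 in wild-type and from 11.93 to 12.01 in transgenic liver. In whole liver RNA, fewer cells of a type and less RNA per cell cannot be told apart, and the part of the hepatocyte markers in the fall of Egfr was not tested. Transgenic replicate 1, the array with the male pattern, read Egfr 1424932_at 0.29 above the mean of the other transgenic arrays. Leaving that array out kept the fall, and in each of the 18 alternative settings it stayed between -1.36 and -0.67 with an adjusted p of 0.00171 or less. The value of -0.67 is that of the mean over all Egfr probe sets. On 1424932_at itself the smallest fall was -0.88, on control-scaled arrays. Across the 6 arrays the probe sets of other genes most like Egfr 1424932_at were those of Nicn1 (Pearson's r = 0.999), Slc12a7 (0.999) and 1700097N02Rik (0.998). With 2 separate groups of 3 arrays such a likeness is common, and 1001 of 20375 named probe sets had r above 0.95.

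**Figure D2:**
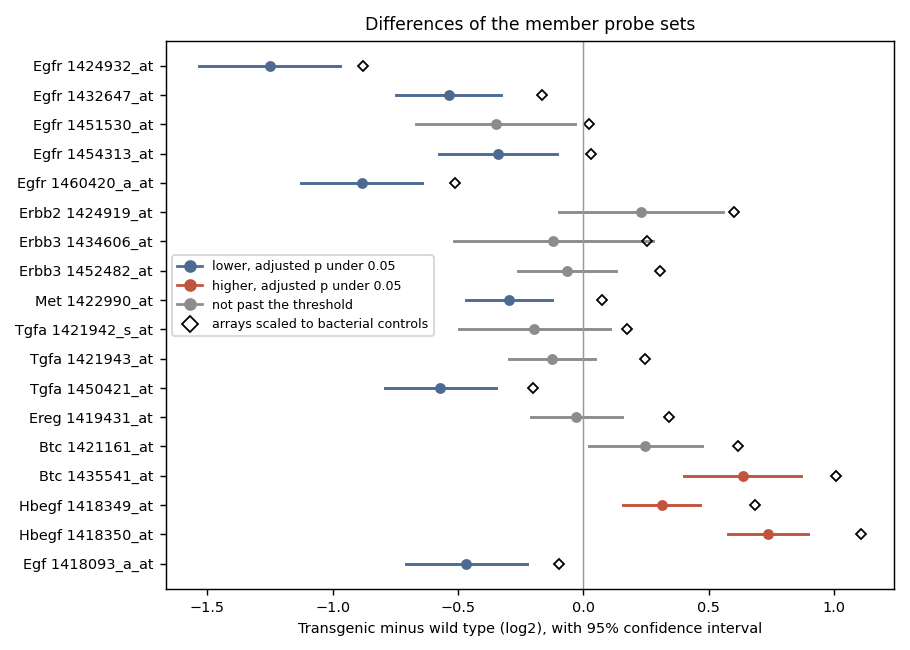
Difference between transgenic and wild-type arrays (log2) for each member probe set, with its 95% confidence interval from the limma fit. Blue marks falls, red rises and grey probe sets that did not pass, and open diamonds give the difference on control-scaled arrays, 0.37 higher in each case. On that scale the falls of Met and of Egfr 1454313_at change sign, while the rises of Hbegf and Btc grow.

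Erbb2, the preferred partner of the other ErbB receptors, did not pass on all arrays, and its value depended on which wild-type arrays were used. Its probe set 1424919_at read 6.60, 6.09 and 6.05 in wild-type and 6.47, 6.47 and 6.48 in transgenic liver, so wild-type replicate 1 lay above the transgenic arrays and the other wild-type arrays below them. The difference was 0.23 (SE 0.14, 95% confidence interval -0.10 to 0.56, adjusted p = 0.238). Without wild-type replicate 1 it was 0.41 (SE 0.07, adjusted p = 0.0049), and on control-scaled arrays it was 0.60 (adjusted p = 0.00451). Without wild-type replicate 2 or 3 it was 0.15 (adjusted p = 0.501) or 0.13 (adjusted p = 0.531). Leaving out a transgenic array gave adjusted p between 0.336 and 0.365.

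Erbb3, the neuregulin receptor, differed by less than its spread between arrays on both probe sets. The bright probe set 1434606_at read 10.62, 10.12 and 10.08 against 9.87, 10.29 and 10.30 (-0.12, SE 0.17, 95% confidence interval -0.52 to 0.28, adjusted p = 0.617). Wild-type replicate 1 was the highest of the 6 and transgenic replicate 1 the lowest, and without either of them the sign turned (0.06 and 0.02). The dim probe set 1452482_at read 4.78, 4.68 and 4.91 against 4.75, 4.64 and 4.78 (-0.07, SE 0.08, adjusted p = 0.573), and it read higher on control-scaled arrays (0.31, adjusted p = 0.0254).

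Markers of bile duct cells also set wild-type replicate 1 apart. The mean of the 7 cholangiocyte markers measured was 7.80 on wild-type replicate 1, 6.98 and 6.63 on the other wild-type arrays, and 8.26, 8.20 and 7.99 on the transgenic arrays. On 6 of those 7 markers wild-type replicate 1 read highest of its group. Of the 7 markers 4 rose (Cldn7, Sox9, Epcam and Krt7) and Prom1 fell, also on control-scaled arrays. On the deposited scale 19.1% of all genes rose and 19.5% fell. Krt19 (-0.27, adjusted p = 0.613) and Cftr (0.38, adjusted p = 0.573) did not pass. Without wild-type replicate 3 a second marker fell. The part of these markers in the Erbb2 and Erbb3 values was not tested.

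**Figure D3:**
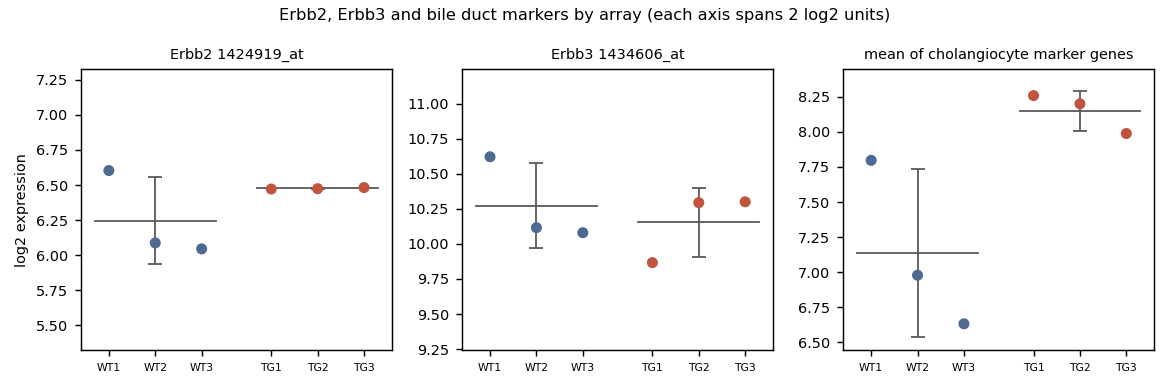
Log2 expression of Erbb2, of the bright Erbb3 probe set and of the mean of 7 cholangiocyte markers on each array, with group means (lines) and SDs (bars). Wild-type replicate 1 (WT1) is the highest wild-type array in all 3 panels, at 6.60, 10.62 and 7.80.

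Met fell slightly. Its only probe set, 1422990_at, is dim (23.8% of all probe sets have a mean at or below its own) and read 4.86, 4.96 and 4.87 in wild-type and 4.54, 4.58 and 4.69 in transgenic liver. The groups did not overlap, and the fall was 1.23-fold (-0.30, SE 0.07, adjusted p = 0.0166). It did not pass with quantile normalization again (adjusted p = 0.114) or cyclic loess (0.0989), nor without wild-type replicate 2 (0.0586) or transgenic replicate 1 (0.0561) or 2 (0.0575), and it was 0.08 (adjusted p = 0.51) on control-scaled arrays.

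Around Met, genes for the hepatocyte growth factor system went both ways. Hgf, which encodes the ligand of MET, averaged 6.63 in wild-type and 6.70 in transgenic liver (0.08, SE 0.12, adjusted p = 0.635), but 0.45 (adjusted p = 0.0106) on control-scaled arrays. Of 10 markers of stellate cells and fibroblasts, which make Hgf, 3 fell and none rose (2 and 5 on control-scaled arrays), and their part in this value was not tested. A list of 9 genes held hepatocyte growth factor, the related macrophage-stimulating protein and its receptor, and the activating proteases and their inhibitors. Of these 9 genes 3 rose and 4 fell (5 and 2 on control-scaled arrays), against 19.1% and 19.5% of all genes. Spint1, a membrane inhibitor of the activating proteases, read 5.92, 5.51 and 4.66 in wild-type and 7.85, 7.93 and 7.76 in transgenic liver, a rise of 2.48 (SE 0.27, adjusted p = 0.00036). St14, which encodes the membrane protease matriptase that the Spint1 product inhibits, read 5.89, 5.60 and 4.95 against 7.79, 7.72 and 7.57, a rise of 2.21 (SE 0.21, adjusted p = 0.000182). Both genes were highest among wild-type arrays in replicate 1, as the bile duct markers were.

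Mst1r, the macrophage-stimulating protein receptor and closest relative of Met, read 6.66, 6.56 and 6.17 against 5.28, 4.99 and 4.97, a fall of 1.38 on the log2 scale (SE 0.14, adjusted p = 0.000254). Hgfac, the circulating activator of hepatocyte growth factor made by liver, read 11.72, 11.83 and 11.74 against 10.57, 10.68 and 10.66, so it fell by 1.13 (SE 0.07, adjusted p = 2.65e-05). Neither pair of groups overlapped. Named after their values were seen, the inhibitor gene Spint2 rose by 0.87, Mst1, the ligand of Mst1r made by hepatocytes, fell by 0.57 and the hepsin gene Hpn fell by 0.47. On control-scaled arrays Mst1 (-0.20) and Hpn (-0.10) no longer passed, whereas Mst1r (-1.01) and Hgfac (-0.76) did. Plau, the gene of the urokinase protease and also named after its value was seen, was at -0.12 (adjusted p = 0.253), and at 0.26 (adjusted p = 0.0404) on control-scaled arrays.

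Hbegf and Btc were the ligand genes that rose. Hbegf encodes heparin-binding EGF-like growth factor, which binds EGFR and ERBB4. Its probe set 1418350_at read 6.70, 6.68 and 6.68 in wild-type and 7.41, 7.36 and 7.50 in transgenic liver, a rise of 1.67-fold (0.74, SE 0.07, adjusted p = 0.000157). The second probe set, 1418349_at, read 6.66, 6.73 and 6.71 against 7.01, 6.97 and 7.05, a rise of 1.24-fold (0.31, SE 0.07, adjusted p = 0.00835). Neither overlapped between groups, and both passed in every alternative setting run on them, as did the mean over both probe sets. The probe sets of other genes most like 1418350_at over the 6 arrays were those of Dsg2 (Pearson's r = 0.999), Dnpep (0.999) and Tbc1d19 (0.999), among 1631 of 20378 with r above 0.95.

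Btc encodes betacellulin, another ligand of EGFR and ERBB4. Probe set 1435541_at read 5.43, 5.61 and 5.33 in wild-type and 6.24, 6.07 and 5.98 in transgenic liver, a rise of 1.56-fold (0.64, SE 0.10, adjusted p = 0.00228). The call held in all 17 alternative settings, among them the mean over both Btc probe sets. Probe set 1421161_at lies near the bottom of the array's range, with only 1.18% of probe sets at or below its mean. It read 2.74, 2.87 and 2.75 against 2.92, 3.23 and 2.96 (0.25, SE 0.10, adjusted p = 0.0822), without overlap, and it passed with quantile normalization again (0.31, adjusted p = 0.0359), cyclic loess (0.36, adjusted p = 0.0193) or on control-scaled arrays (0.62, adjusted p = 0.000732).

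Other ligand genes of the same cluster were dim and did not pass. In the GRCm38.p6 gene table Epgn, Ereg, Areg and Btc, all of which encode EGF-like ligands, are consecutive protein-coding genes, of which Areg, next to Btc, was not measured. Ereg, which encodes epiregulin, read 3.63, 3.65 and 3.78 in wild-type and 3.71, 3.70 and 3.56 in transgenic liver. These groups overlapped (-0.03, SE 0.08, 95% confidence interval -0.21 to 0.15, adjusted p = 0.806), at a level where only 9.98% of probe sets are as dim, although the value was 0.34 (adjusted p = 0.0182) on control-scaled arrays. Epgn, the epigen gene, read 3.76 against 3.68 (-0.08, SE 0.08, adjusted p = 0.448), and its difference was 0.29 (adjusted p = 0.0407) on control-scaled arrays.

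Egf, which encodes the ligand that names the family, fell on its only probe set, 1418093_a_at. Wild-type values were 4.53, 4.77 and 4.59 and transgenic values 4.32, 4.16 and 3.999, without overlap. The fall was 1.38-fold (-0.47, SE 0.10, adjusted p = 0.0108), and on control-scaled arrays the value was -0.10 (adjusted p = 0.546). The probe set is dim, at or above 19.4% of probe sets.

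Tgfa, which encodes transforming growth factor alpha, an EGFR ligand made by hepatocytes themselves, gave 3 probe sets that differed in their calls. Probe set 1421943_at, the brightest, read 8.46, 8.32 and 8.41 against 8.34, 8.21 and 8.26 (-0.12, SE 0.07, 95% confidence interval -0.30 to 0.05, adjusted p = 0.228), and 1421942_s_at read 6.12, 5.79 and 5.83 against 5.95, 5.70 and 5.51 (-0.19, SE 0.13, adjusted p = 0.277). Both overlapped between groups. Probe set 1450421_at read 5.51, 5.68 and 5.48 against 5.04, 5.09 and 4.83, a fall of 1.49-fold (-0.57, SE 0.10, adjusted p = 0.00299). All 3 were designed from 1 transcript record. Over the mean of the 3 probe sets the difference was -0.30 (adjusted p = 0.0225), and on control-scaled arrays none of the 3 passed (0.25, 0.18 and -0.20).

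Markers of other cells in the liver moved as well, in both directions. Of 8 granulocyte markers measured 7 fell (array means 9.25 to 10.35 in wild-type and 7.54 to 8.44 in transgenic liver). Of 8 lymphoid markers 7 fell (4 on control-scaled arrays). Of 9 Kupffer cell and macrophage markers 3 fell (on control-scaled arrays none fell and 2 rose). Leaving out wild-type replicate 2 or 3 or transgenic replicate 2 took that count to 1, and leaving out wild-type replicate 1 took it to 6. Of 9 endothelial markers 5 fell and 1 rose (0 and 4 on control-scaled arrays), and without transgenic replicate 2 these were 3 and 0. Of 7 erythroid markers 4 rose and none fell (5 and 0 on control-scaled arrays). Of all genes 19.1% rose and 19.5% fell. Their part in the ligand values was not tested.

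The remaining ErbB genes were mostly dim. Of 6 further receptor and ligand genes 4 were measured. Nrg4, a neuregulin that binds ERBB4, fell while none rose (0 and 3 on control-scaled arrays), against 19.5% and 19.1% of all genes. Its arrays read 5.22, 5.51 and 5.43 in wild-type and 4.85, 4.67 and 4.58 in transgenic liver (-0.69, SE 0.10, adjusted p = 0.00174, and adjusted p = 0.0507 on control-scaled arrays). Erbb4, the receptor, read 2.94 and 2.93 (-0.02, adjusted p = 0.921), and its difference was 0.36 (adjusted p = 0.0461) on control-scaled arrays. Nrg3, another neuregulin gene, was called higher there as well (0.32, adjusted p = 0.0409).

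Genes of ligand shedding moved upward where they moved. Of 7 measured, 4 rose and none fell (6 and 0 on control-scaled arrays), against 19.1% and 19.5% of all genes. Their median difference was 0.36, against -0.04 over all genes. Frmd8, whose product stabilises the rhomboid-like carriers of the protease ADAM17, read 6.56, 6.75 and 6.61 against 7.33, 7.31 and 7.20, a rise of 0.64 (SE 0.08, adjusted p = 0.000702). Rhbdf1, which encodes such a carrier, read 7.35, 7.24 and 7.29 against 8.07, 7.90 and 7.79, a rise of 0.63 (SE 0.09, adjusted p = 0.00125). Named after their values were seen, the sheddase gene Adam10, with 2 of 3 probe sets called, rose by 0.36. Timp3, an ADAM17 inhibitor gene with 1 of 4 probe sets called and named likewise, rose by 0.39. Adam17 itself read 8.58 and 8.61 (0.02, SE 0.07, adjusted p = 0.806), and its difference was 0.39 (adjusted p = 0.00706) on control-scaled arrays.

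**Figure D4:**
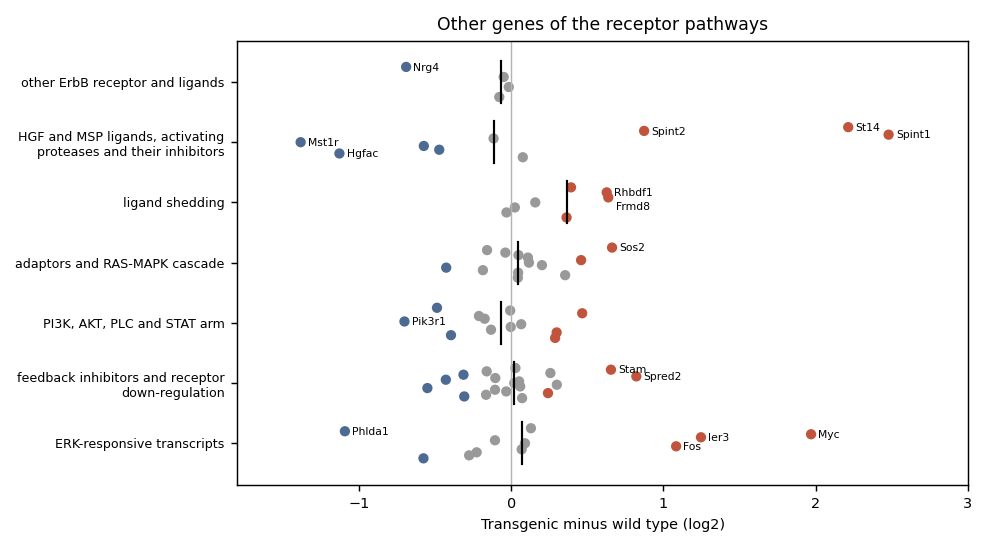
Difference between transgenic and wild-type arrays (log2) for each measured gene of 7 pathway lists, read by its brightest probe set, with the list median as a black line. Red marks rises, blue falls and grey genes that did not pass, and genes past 0.6 in either direction are named. Spint1 (2.48) and St14 (2.21) rose the most and Mst1r (-1.38) fell the most on the deposited scale.

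Downstream of the receptors, genes went both ways, where 19.1% of all genes rose and 19.5% fell. Of 13 adaptor and RAS-MAPK genes 2 rose, 1 fell and 10 did not pass (10 rose on control-scaled arrays). Sos2, a RAS activator, rose by 0.66 (SE 0.08), Nras by 0.46 (SE 0.08, with each of its 3 probe sets called), and the scaffold gene Ksr1 fell by 0.43 (SE 0.10), a call lost without transgenic replicate 3 (adjusted p = 0.0501) and on control-scaled arrays (-0.06). Of 12 genes of the PI3K, AKT, PLC and STAT arm 3 rose and 3 fell (6 and 0 on control-scaled arrays). The kinase gene Src rose by 0.47 (1 of 2 probe sets called) and the adaptor gene Crk by 0.30, although 1 of the 5 Crk probe sets was lower, and the Crk call was lost without transgenic replicate 2 (adjusted p = 0.0517), with cyclic loess (0.055) and over the mean of its probe sets (0.384).

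Pik3r1, the regulatory subunit of PI3K, fell by 0.70 (SE 0.20, adjusted p = 0.0266), with 2 of 3 probe sets called. It no longer passed without wild-type replicate 2 (adjusted p = 0.081) or 3 (0.0683), without transgenic replicate 2 (0.0768), with a replicate block (0.0576) and on control-scaled arrays (-0.33, adjusted p = 0.131). Stat5b, a transcription factor of cytokine and growth factor signalling, fell by 0.49 (SE 0.08, adjusted p = 0.00224), with 1 of 2 probe sets called. It was at -0.12 (adjusted p = 0.301) on control-scaled arrays. Without transgenic replicate 2 the arm had 1 rise and 1 fall, with Akt1 (adjusted p = 0.0713) and Akt2 (0.0516), named after their values were seen, among those that no longer passed. The Akt1 call was also lost with quantile normalization again (0.0644), with cyclic loess (0.0733), and without wild-type replicate 2 (0.0534) or transgenic replicate 1 (0.063). The Akt2 call, made on 1 of its 2 probe sets, was also lost on control-scaled arrays (-0.025).

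Of 19 feedback inhibitors and genes of receptor down-regulation 3 rose, 4 fell and 12 did not pass (11 higher and 0 lower on control-scaled arrays). The shares over all genes were 19.1% higher and 19.5% lower. Lrig1, which marks ErbB receptors and MET for degradation, fell on all 3 of its probe sets, its brightest reading 8.89, 8.95 and 8.96 against 8.44, 8.30 and 8.40 (-0.55, SE 0.07, adjusted p = 0.000818). Sh3kbp1, an endocytic adaptor gene, fell by 0.43 (SE 0.10, with 2 of 3 probe sets called), a call lost without transgenic replicate 2 (adjusted p = 0.0527). Spred2, an inhibitor of RAF activation, rose by 0.82 (SE 0.07, adjusted p = 0.000131) on 1 of 2 probe sets, and Stam, an endosomal sorting gene, rose by 0.66 (SE 0.08). Named after their values were seen, Errfi1, an inhibitor of the EGFR kinase, read 12.35 and 12.32 (-0.03, SE 0.11, adjusted p = 0.839, but 0.34 with adjusted p = 0.0229 on control-scaled arrays), while Spry1 fell by 0.31 and Dusp6, the ERK phosphatase, fell by 0.31. On control-scaled arrays none of the 4 falls passed, Lrig1 being at -0.18, Sh3kbp1 at -0.06, Spry1 at 0.057 and Dusp6 at 0.062. Leaving out wild-type replicate 3 left 2 falls, and leaving out transgenic replicate 2 left 1. Spry1 was lost without wild-type replicate 1 (0.0595) or 3 (0.0616) and without transgenic replicate 2 (0.0825) or 3 (0.083), as adjusted p. Dusp6 was lost without wild-type replicate 2 (0.115) or 3 (0.0576) and without transgenic replicate 1 (0.109) or 2 (0.121).

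Transcripts that ERK signalling can induce went both ways. Of 11 measured 3 rose and 2 fell (6 and 1 on control-scaled arrays). Myc read 7.07, 6.53 and 7.04 against 8.54, 8.87 and 9.14 (1.97, SE 0.19, adjusted p = 0.000164). Ier3, an immediate early gene, read 6.70, 7.52 and 7.40 against 8.65, 8.12 and 8.59 (1.25, SE 0.23, adjusted p = 0.00415). Phlda1 read 10.41, 9.69 and 9.83 against 9.04, 8.74 and 8.88, so it fell by 1.09 (SE 0.18, adjusted p = 0.0027). Ccnd1, which encodes cyclin D1, fell by 0.58 (SE 0.10, adjusted p = 0.0028), with each of its 3 probe sets called, and was at -0.21 (adjusted p = 0.184) on control-scaled arrays. Egr1 did not pass (-0.28, SE 0.31, adjusted p = 0.517). Over the 7 lists together 18 of 75 measured genes rose and 15 fell, against 38.6% of all genes changed in either direction.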

How the data were processed

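Liver RNA of 6 mice (3 wild-type, 3 transgenic) was hybridised to Affymetrix arrays, each mouse separately. The authors deposited log2 expression per probe set, computed with affy and RMA per the submitters' processing notes, where versions are not stated. RMA subtracts background, makes the arrays' distributions equal at the level of single probes and then summarises probes. The deposited probe set medians still differed slightly, at 6.74, 6.74 and 6.76 on the wild-type arrays and 6.78, 6.79 and 6.79 on the transgenic arrays. The table held 22690 probe sets, 64 of them array controls, and 0 missing values. Precision is limited by the number of arrays. Group and replicate number come from the sample titles. The labels speak of biological replicates.

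In the platform annotation 20380 probe sets had a single gene, 691 had several and 1555 had no gene. Entrez identifiers led 20351 to the RefSeq gene table of GRCm38.p6, and 0 symbols changed. The main comparison used limma 3.58.1 under R 4.3.3 without covariates, and p-values were adjusted by Benjamini and Hochberg over the 22626 probe sets left. Lists of genes were read through the brightest probe set of each gene. Exact permutation of 3 and 3 arrays gives no p below 0.1 and was not used. The procedure was tested on simulated data.

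Members, lists and tests were chosen with earlier results of these data known. Every member is named. Each pathway list has up to 2 genes named for the largest rises and 2 for the largest falls. The 3 probe sets most like the member with the largest rise, and like that with the largest fall, are named too. Further names are marked as chosen after their values were seen, except Hgf, Epgn, Erbb4, Nrg3, Adam17, Egr1 and cell markers, which are given as values. Alternatives covered fits per gene, removal of _x_at and _s_at or of the 40% dimmest probe sets, other normalizations, other eBayes options, weights per array, the replicate number as a block, and fits lacking each array in turn. Python 3.11.15, pandas 2.3.3 and matplotlib 3.10.9 made the tables and figures.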

Additional observations from a re-analysis of the deposited data

How the results depend on the processing

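The member values kept their direction and their side of the threshold in 256 of 295 comparisons with an alternative. Of the 39 others, 13 came from scaling the arrays to the bacterial controls, 14 from leaving out an array and 12 from other settings, of which quantile normalization again and cyclic loess gave 5 each. Scaling to the controls adds 0.37 to every difference by construction. There 7 member probe sets were higher and 2 lower, against 3 and 7 on the deposited scale. All probe sets gave 12963 rises and 945 falls (rises were 93.2% of calls, against 51% on the deposited scale), and in the pathway lists 47 genes were higher and 3 lower. Among member probe sets, signs turned there for Egfr 1454313_at (0.030), Egfr 1451530_at (0.022), Erbb3 1434606_at (0.25), Tgfa 1421942_s_at (0.18), Tgfa 1421943_at (0.25), Erbb3 1452482_at (0.31), Ereg (0.34) and Met (0.075). Among the pathway genes called on the deposited scale they turned for Dusp6 (0.062) and Spry1 (0.057), and the uncalled Tfeb turned too (0.16). Median centring gave 42.1% of calls higher. Member probe sets lower numbered 3 with genes read by their brightest probe set and 4 with the mean of probe sets. Without the 40% dimmest probe sets they numbered 3. Fewer member probe sets were tested in these settings. Without the 40% dimmest, all probe sets gave 4045 rises and 2790 falls, against 4087 and 3919 with them. Rises were then 59.2% of calls, so falls depended on dim probe sets more than rises did. Genes called higher and lower were 2467 and 2523 by the brightest probe set and 2241 and 2524 by the mean of probe sets, again with fewer features tested. Leaving out each array gave 3 to 4 member probe sets higher and 5 to 8 lower.

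Replicate numbers occur in both groups, but nothing in the labels ties equal numbers together. The deviations of equally numbered arrays correlated at -0.10, -0.02 and 0.05 (Pearson's r across probe sets), so the numbers were not taken as pairs. With a replicate block the member probe sets higher and lower stayed at 3 and 7, and 3466 probe sets were higher and 3291 lower. Leaving out an array gave Met adjusted p between 0.0223 and 0.0586, and Egf between 0.00969 and 0.0387.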
